A study of Mus musculus with 65 samples.

Results

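Pax6, Pax3, Pax7, Pax2 and Pax8 were followed across neural progenitors (NPs) made from mouse embryonic stem (ES) cells under graded Sonic hedgehog (Shh) signalling. The genes were chosen by name, as the Pax genes held to be repressed by Shh signalling. They are 5 of 25239 genes in the table, and 5 of the 9 Pax family genes listed there. The name held to different degrees. Among the sorted NPs Pax6 was lowest in p3, though p2 and p0-1 were sorted as PAX6 positive. Pax3 was found almost only where no Shh agonist was given. In p0-1 on days 5 and 6 the mean of Pax6 was 4221 with agonist at 10 nM and 2537 without it, a difference not called. Pax7 and Pax2 were sparse, and Pax8 was present in 1 library of 65, so these libraries show no repression of Pax8.

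The Pax genes encode transcription factors that bind DNA through a paired domain. In the neural tube Shh spreads from the ventral midline, and progenitor factors fall into those repressed by Shh (class I) and those induced by it (class II). PAX6 is a class I factor of the ventral and intermediate neural tube, where it and NKX2.2 repress each other at the boundary of the p3 domain. PAX3 and PAX7 mark the dorsal neural tube and early neural crest, and are cleared from ventral cells by Shh. PAX2 and PAX8 are known from inhibitory interneurons, the midbrain to hindbrain boundary and the kidney.

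All cells came from HM1, an ES line that was not engineered here, and were taken through neuromesodermal progenitors (NMPs) by FGF and a WNT secretion inhibitor, then FGF, a WNT agonist and blockers of TGF-beta and BMP signalling. From day 3, all cultures received retinoic acid at 100 nM together with 0, 10, 100 or 500 nM SAG, an agonist of Smoothened. On days 4, 5 and 6 the cultures were fixed, and flow sorting on antibodies to intracellular transcription factors separated p0-1 (0 and 10 nM), p2 (10 and 100 nM), pMN (100 and 500 nM) and p3 (100 and 500 nM), with NMPs taken on day 3. Together with the 3 NMP libraries, 17 p0-1, 15 p2, 15 pMN and 15 p3 libraries gave 65 libraries in 25 groups of 1 to 3. The sort used PAX6 protein: p2 was PAX6 with NKX6.1, and p0-1 was PAX6 without NKX6.1, so the level of Pax6 RNA was not independent of the gate. The study describes replicates of its chromatin libraries as independent differentiations, and the labels do not say this of the RNA libraries. The p-values therefore measure the spread between these libraries. Each n counts libraries, and whether libraries of different days with the same replicate number share a differentiation is not stated.

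Libraries held 7615114 to 13484815 reads on genes, and 9718 to 15963 genes with a read. The day 4 p3 library at 100 nM had the fewest genes with a read and was the only library of its group. The day 4 results of p3 against p0-1 are also given without it. On days 5 and 6 other progenitor factors were read beside the labels. Dbx1, a factor of the p0 domain, was at 2263 ± 880 normalised reads in p0-1 (SD, n = 12) and at 0 in all 11 p3 libraries. Nkx2-2, the p3 factor, was at 255 ± 90.9 in p3 (SD, n = 11) and at 0 in all 12 p0-1 libraries. NKX2.2 protein was the marker that sorted p3, so this RNA was not independent of the gate. Dbx2, the other p0-1 marker, was at 81.5 ± 115 in p0-1 and 78.6 ± 109 in p2 (SD, n = 12 each), and did not set these cell types apart.

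Pax6 lies on chromosome 2 (105668896 to 105698410, plus strand, GRCm38), Pax3 on chromosome 1 (78101267 to 78197136, minus), Pax7 on chromosome 4 (139738081 to 139832968, minus), Pax2 on chromosome 19 (44746601 to 44838269, plus) and Pax8 on chromosome 2 (24420551 to 24475599, minus). Reads were counted over all exons of a gene, so the RNA of alternative starts was pooled. Pax6 has a pair of annotated starts in the RefSeq promoter table, which held 7 promoters of 4 of the genes. The 250 bases before both Pax6 starts, and before that of Pax7, are shown because the one count per gene sums what each start gives. The first Pax6 window has 60.8% G and C and the second 47.6%, against a median of 52.4% over all promoters.
Pax6, first start, GRCm38.p6, plus strand, chr2:105668646-105668895: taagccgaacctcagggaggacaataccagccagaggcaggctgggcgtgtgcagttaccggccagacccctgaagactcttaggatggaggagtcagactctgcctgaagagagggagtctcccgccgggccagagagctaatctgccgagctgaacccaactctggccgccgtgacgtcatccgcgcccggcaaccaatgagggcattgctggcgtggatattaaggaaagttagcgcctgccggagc
Pax6, second start, GRCm38.p6, plus strand, chr2:105682213-105682462: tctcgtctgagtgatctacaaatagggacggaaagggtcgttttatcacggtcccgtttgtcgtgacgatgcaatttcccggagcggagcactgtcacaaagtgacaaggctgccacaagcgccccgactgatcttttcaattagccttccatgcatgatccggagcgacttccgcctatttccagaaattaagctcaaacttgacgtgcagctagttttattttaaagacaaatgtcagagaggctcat
Pax7, GRCm38.p6, minus strand, chr4:139832969-139833218: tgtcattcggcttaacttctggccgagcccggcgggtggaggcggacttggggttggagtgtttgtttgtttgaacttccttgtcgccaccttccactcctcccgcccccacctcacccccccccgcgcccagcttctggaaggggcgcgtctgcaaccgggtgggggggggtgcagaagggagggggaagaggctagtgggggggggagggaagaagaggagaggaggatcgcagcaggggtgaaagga
No base is capitalised because neither motif searched on both strands, GACCACCCA (the core that GLI proteins bind) and a paired homeodomain dimer site (TAAT and ATTA set 3 bases apart), occurred in these windows. GACCACCCA occurred in 0.225% and the dimer site in 0.463% of the 32851 promoters, counted over the same 250 bases.

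The paralogues could be told apart by reads longer than a short core. The longest identical run in the coding sequences of Pax3 and Pax7 was 26 bases, at coding positions 79 to 104 of both, and that of Pax2 and Pax8 was 27 bases, at 205 to 231 of Pax2 and 187 to 213 of Pax8 (GENCODE vM21, longest coding transcript). These runs are shown because a read confined to them could be assigned to either gene.
Pax3 and Pax7: ctggaagtgtccacccctcttggcca
Pax2 and Pax8: ggcaggtactacgagactggcagcatc
Pax6 shared no more than 14 coding bases in a row with any of the other 4 genes. Of the 4761 exonic bases of Pax6, 1091 also lie in exons of Elp4 on the opposite strand, and the use of strand in counting is not stated, so reads there could come from either gene.

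Values are read counts divided by a size factor for each library (normalised reads), in which 1 read was worth 0.717 to 1.36. The genes were at very different levels where all but Pax8 were found. In p0-1 at 0 nM on days 5 and 6, normalised reads per kilobase of exon were 533 ± 60.7 for Pax6, 86.5 ± 59.0 for Pax3, 14.4 ± 12.3 for Pax7 and 3.50 ± 3.61 for Pax2 (SD, n = 6 each), and Pax8 was at 0. More than 3 reads were found in 63 of the 65 libraries for Pax6, in 11 for Pax3, 8 for Pax7, 11 for Pax2 and 1 for Pax8. The test took 13964 genes with a mean of at least 10 over all libraries. Only Pax6 (mean 2115) and Pax3 (mean 33.9) passed that filter, and Pax3 passed through its p0-1 libraries at 0 nM.

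**Figure D1:**
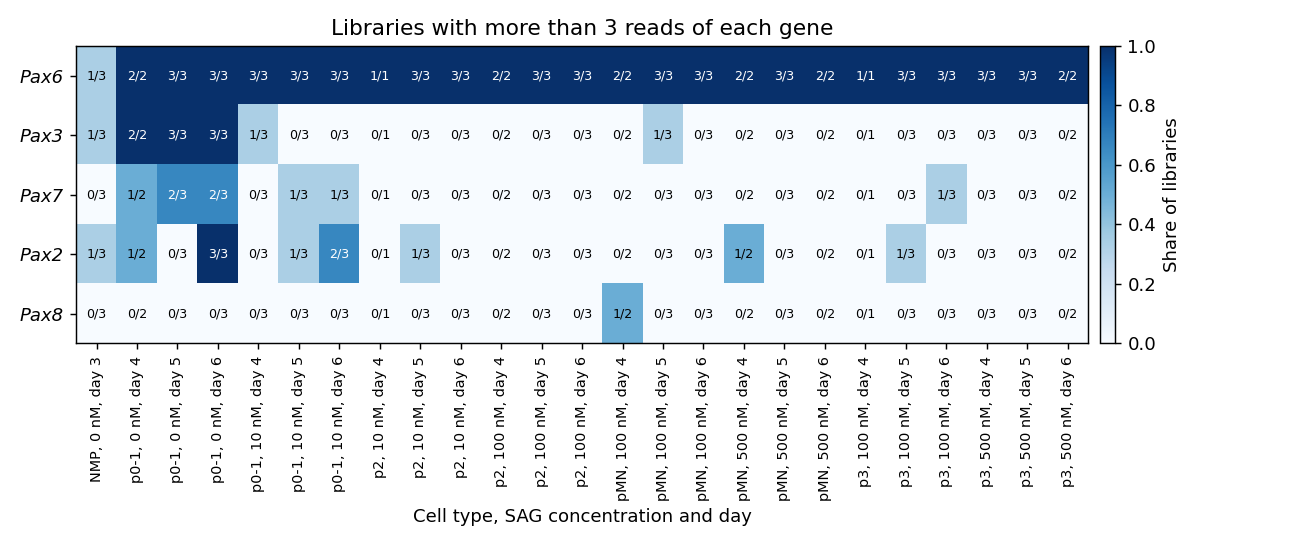
Number of libraries with more than 3 reads of each gene, over the number of libraries in each of the 25 groups of cell type, SAG concentration and day; the colour gives the share from 0 to 1. Pax6 fills every group but the NMPs, Pax3 fills the p0-1 groups at 0 nM, and Pax8 is in 1 library.

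To ask how Pax6 is placed along the ventral series, its level was read in every group. Pax6 was highest in p0-1 and p2, lower in pMN, lower again in p3, and all but absent from NMPs. In the 3 NMP libraries it was at 27.3, 1.13 and 4.08 normalised reads. By day 4 all 16 progenitor libraries were above the NMPs, from 41.8 to 5185. The change was 7.60 on the log2 scale (SE 0.60, limma adjusted p = 3.31e-14, with 3.49% of all genes tested called), where called means an adjusted p below 0.01 and over 2-fold.

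In p0-1 at 0 nM, Pax6 was at 1958 and 3998 on day 4, at 2557, 1989 and 2789 on day 5, and at 2752, 2518 and 2616 on day 6. In p0-1 at 10 nM it was at 1852, 2860 and 5185 on day 4, at 4011, 2686 and 5749 on day 5, and at 3036, 3639 and 6208 on day 6. The libraries at 0 nM stayed in a narrow range on days 5 and 6. Those at 10 nM spread over a wider and mostly higher one, and replicate 3 was the highest there on each day.

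In p2 at 10 nM, Pax6 was at 3139 in the single library of day 4, at 4667, 4363 and 4078 on day 5, and at 4664, 4761 and 5805 on day 6. In p2 at 100 nM it was at 2581 and 2241 on day 4, at 1847, 2742 and 2450 on day 5, and at 3338, 4013 and 3888 on day 6. All 6 libraries of days 5 and 6 at 100 nM were below all 6 at 10 nM.

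In pMN at 100 nM, Pax6 was at 1230 and 1688 on day 4, at 1639, 2089 and 2022 on day 5, and at 1406, 1694 and 2246 on day 6. In pMN at 500 nM it was at 1085 and 1746 on day 4, at 1129, 2054 and 848 on day 5, and at 503 and 1147 on day 6. The 4 lowest pMN values of days 5 and 6 were at 500 nM, and the fifth library there, at 2054, lay within the range of the 100 nM libraries.

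In p3 at 100 nM, Pax6 was at 330 in the single library of day 4, at 109, 248 and 101 on day 5, and at 236, 77.1 and 207 on day 6. In p3 at 500 nM it was at 216, 877 and 41.8 on day 4, at 60.4, 717 and 525 on day 5, and at 157 and 10.2 on day 6. On days 5 and 6 the p3 libraries at 500 nM held both the lowest and the highest Pax6 value of p3.

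Ranked by mean, the 12 p0-1 and p2 groups took ranks 1 to 12, the 6 pMN groups 13 to 18, the 6 p3 groups 19 to 24, and the NMPs came last. The p0-1 and p2 groups were mixed in the order and together lay above pMN, which lay above p3, but neighbours in the order were mostly not resolved. Of 24 neighbouring pairs, 1 had libraries that did not overlap, p3 at 100 nM on day 4 above p3 at 100 nM on day 6, and the first of these is the single library named above.

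**Figure D2:**
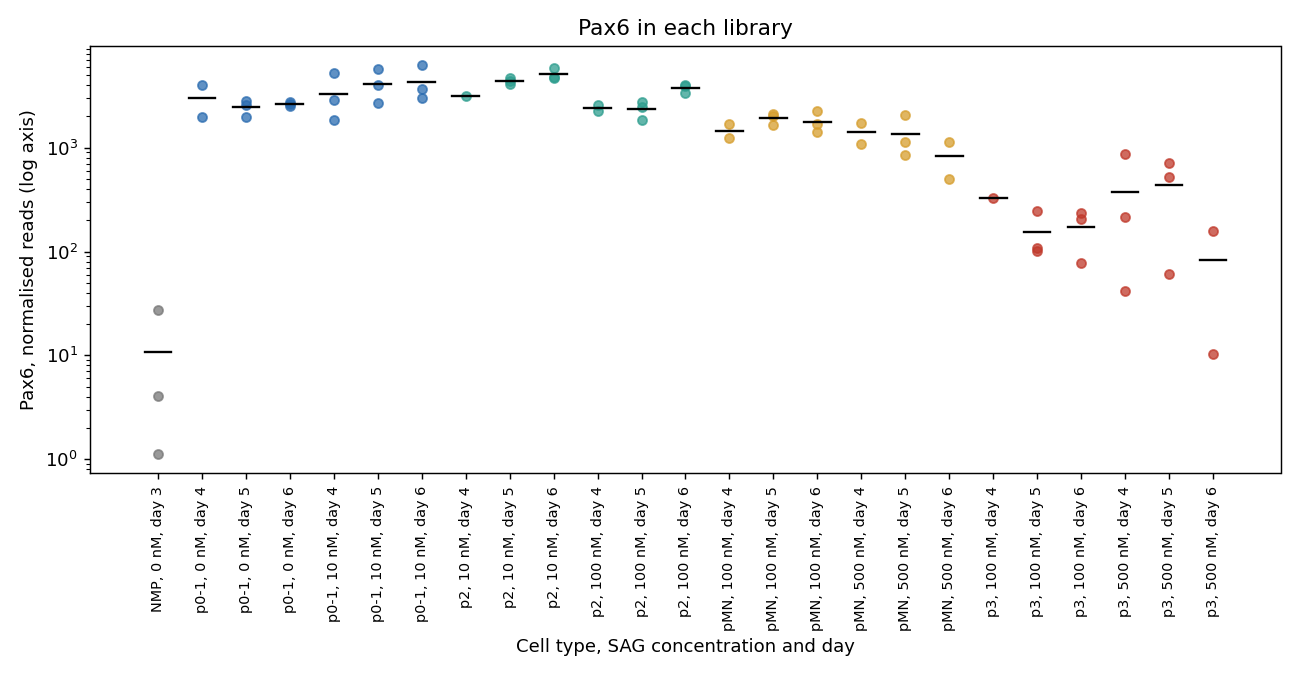
Pax6 in normalised reads (log axis) in each of the 65 libraries, by cell type, SAG concentration in nM and day; points are libraries, bars are group means and colours are cell types. NMPs sit at 1.13 to 27.3, p3 at 10.2 to 877, and p0-1 and p2 at 1847 to 6208.

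On days 5 and 6, Pax6 was at 3379 ± 1326 in p0-1 (n = 12), 3885 ± 1119 in p2 (n = 12), 1525 ± 567.7 in pMN (n = 11) and 223 ± 215 in p3 (n = 11; SD). Pax6 was called lower in p3 than in each other type, with a difference of -3.39 against pMN (SE 0.41, adjusted p = 1.91e-07, 0.695% of genes called), -4.86 against p2 (SE 0.40, adjusted p = 3.41e-12, 1.27% called) and -4.64 against p0-1 (SE 0.40, adjusted p = 3.04e-12, 1.43% called), all from limma on the log2 scale. All 11 p3 libraries lay below all p2 and p0-1 libraries, while p3, at 10.2 to 717, overlapped pMN, at 503 to 2246. The share of tested genes lower without overlap was 0.043% for p3 against p2 and 0.0859% for p3 against p0-1. PAX6 protein defined the p2 and p0-1 gates, so the differences of p3 from p2 and p0-1 were not independent of the sort.

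Between the other types Pax6 was not called. The difference was -1.48 for pMN against p2 (SE 0.40, adjusted p = 0.0785, 0.107% of genes called) and -1.25 for pMN against p0-1 (SE 0.40, adjusted p = 0.0925, 0.96% called). All 11 pMN libraries lay below the median of p2 and below that of p0-1. When the fit held no other libraries than those compared, both were called (adjusted p = 7.73e-05 and 0.000406). For p2 against p0-1 the difference was 0.22 (SE 0.38, adjusted p = 0.935, 0.322% called), and the libraries overlapped.

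Both p3 and pMN came from 100 and 500 nM, so their comparison was matched for SAG. The other comparisons mix SAG concentrations, so types from the same concentration were also compared. This was chosen after seeing the data. At 10 nM, p2 stood at 4723 ± 587 and p0-1 at 4221 ± 1444 (SD, n = 6 each), a log2 difference of 0.22 (SE 0.54, limma adjusted p = 1.0, with 0.0215% of genes called). At 100 nM, p2 stood at 3046 ± 850, pMN at 1849 ± 319 and p3 at 163 ± 75.6 (SD, n = 6 each). From this one concentration, Pax6 in p3 against p2 gave -4.31 (SE 0.54, limma adjusted p = 2.16e-06, 0.752% called), while pMN against p2 gave -0.69 (SE 0.54, limma adjusted p = 0.86, 0.0143% called). At 500 nM, pMN stood at 1136 ± 576 and p3 at 294 ± 311 (SD, n = 5 each).

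To ask whether SAG itself moves Pax6 within a sorted type, each type was compared between its own concentrations on days 5 and 6. Pax6 was at 4221 ± 1444 in p0-1 at 10 nM and 2537 ± 289 at 0 nM (SD, n = 6 each). The difference was 0.67 (SE 0.54, limma adjusted p = 1.0, 0.0143% of genes called), and all 6 libraries at 10 nM were above the median of those at 0 nM. In p2 it was -0.67 for 100 against 10 nM (SE 0.54, adjusted p = 0.816, 0.0358% called), with no overlap, a pattern of lower values that 0.186% of tested genes had. In pMN it was -0.90 for 500 against 100 nM (SE 0.58, adjusted p = 1.0, 0.0% called), with 4 of 5 libraries at 500 nM below the median at 100 nM. In p3 it was -0.44 (SE 0.58, adjusted p = 0.835, 0.0286% called).

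The limma error was pooled over all 25 groups. An exact two-sided permutation test that exchanged SAG labels within each day used only the libraries of one type, and was added after seeing the data. This exact test gave p = 0.01 for Pax6 in p0-1, p = 0.005 in p2, p = 0.02 in pMN and p = 0.72 in p3. These are unadjusted values among 11 such tests, the smallest possible being 0.005 in p0-1 and p2 and 0.01 in pMN and p3. The test took the libraries of different days as independent of each other. The sample labels do not say whether a replicate number marks the same differentiation followed over days. If it does, the independent units are fewer, and these values and the smallest possible ones would be too small. By these unadjusted values Pax6 leaned higher at the higher concentration in p0-1 and lower at the higher concentration in p2 and pMN. The limma test called none of these. In p2 the smallest possible value was fixed by the lack of overlap already seen, so it adds nothing to that.

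Changes of Pax6 with time were not called once it was on. In p3 Pax6 was at 366 ± 360.5 on day 4 (n = 4), 294 ± 269 on day 5 (n = 6) and 137 ± 93.1 on day 6 (n = 5; SD). From day 5 to day 6 the log2 change in p3 was -1.30 (SE 0.58, limma adjusted p = 0.415, 0.0215% of genes called). Leaving out the day 6 p3 library at 500 nM with 10.2 normalised reads brought that change to -0.35. In the other types the changes from day 5 to day 6 lay between -0.42 and 0.45, and from day 4 to day 5 between -0.36 and 0.21 over all 4 types, none called. The share of genes called from day 4 to day 5 was 6.41% in p3, 0.695% in pMN, 0.193% in p2 and 0.337% in p0-1. The p3 share was 895 genes, and 41 without the single day 4 library at 100 nM. From day 5 to day 6 it was 0.0286% in pMN, 0.15% in p2 and 0.0645% in p0-1. The change from day 4 to day 5 did not differ by the test between p3 and p0-1 (difference -0.45, SE 0.88, adjusted p = 0.882, 3.19% of genes called, or 445, against 0 without the same library), nor did that from day 5 to day 6 (p0-1 minus p3, 1.39, SE 0.79, adjusted p = 0.932, 0.0% called).

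On day 4, Pax6 was called lower in p3 than in p0-1, with 4 p3 libraries at 41.8 to 877 against 5 p0-1 libraries at 1852 to 5185. The difference was -3.49 (SE 0.69, limma adjusted p = 0.000238, 6.02% of genes called, 1.79% lower without overlap), and -3.85 without the single p3 library at 100 nM (adjusted p = 0.00167). The call was lost when the fit held only the compared libraries (limma adjusted p = 0.0606). The single p3 library also set the number of genes called, which was 840 with it and 14 without it. In that comparison the median over all genes was -0.37. The 4 pMN libraries, at 1085 to 1746, also lay below all 5 p0-1 libraries, as 1.55% of tested genes did, but Pax6 was not called there (-1.04, SE 0.64, limma adjusted p = 0.863, 0.1% called). For p2 the difference was -0.08 (SE 0.72, limma adjusted p = 1.0, 0.0286% called).

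Pax3, the dorsal and neural crest factor, was found mainly in p0-1 at 0 nM. Among p0-1 libraries at 0 nM it was at 52.5 and 35.6 normalised reads on day 4, at 133, 149 and 331 on day 5, and at 762, 283 and 350 on day 6. Every one of these 8 libraries held the gene, and each day 5 or day 6 value was above both day 4 values. At 10 nM it was at 0, 0 and 50.6 on day 4 and at 0 in all 3 libraries of day 5 and all 3 of day 6. Over the other 48 libraries, 2 had more than 3 reads of Pax3, an NMP library at 14.9 and a day 5 pMN library at 100 nM at 44.4. All 15 p2 and all 15 p3 libraries were at 0.

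On days 5 and 6, Pax3 was at 335 ± 228 in p0-1 at 0 nM and at 0 in p0-1 at 10 nM (SD, n = 6 each). Against a floor of 3 reads in each library, worth 2.27 to 3.42 normalised reads there, the level at 0 nM was at least 111-fold higher. The fitted difference for 10 against 0 nM was -8.14 on the log2(value + 1) scale (SE 0.75, limma adjusted p = 3.02e-10), and 0.0143% of genes were called. This was 2 of 13964 genes, Pax3 and Hes3, both lower at 10 nM, whereas edgeR called 1 gene and DESeq2 425 in this comparison, Pax3 not among them. With no filter on low values the limma adjusted p of Pax3 was 3.58e-11, so the call did not rest on the filter that Pax3 passed through these libraries. Hes3, a Hes family repressor of early neural progenitors, named here because it is the other gene called, was at 136 ± 85.5 at 0 nM and 0.157 ± 0.385 at 10 nM (SD, n = 6 each).

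Within day 5 the Pax3 difference was -7.56 (SE 1.07, limma adjusted p = 7.80e-05, 0.00716% of genes called). Within day 6 it was -8.73 (SE 1.07, adjusted p = 1.71e-06, 0.0143% called). On day 4 it was -3.57 (SE 1.19, adjusted p = 1.0, 0.00716% called), with 1 of 3 libraries at 10 nM as high as those at 0 nM. The exact permutation test within days 5 and 6 gave p = 0.005 for Pax3, the smallest it allows, as libraries without overlap must give. That value also takes the days as independent.

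The count models run on the recovered reads did not call Pax3: edgeR gave an adjusted p of 0.331 (unadjusted 0.000469) and DESeq2 0.829. The call of Pax3 thus rests on the log scale test, while the lack of overlap between the 6 and 6 libraries was read from the values themselves. Of the tested genes, 3 had reads in all 6 libraries at 0 nM and none in the 6 at 10 nM, namely Pax3, Edn1 and Nab2, and Pax3 had the highest mean of these. Lower values without overlap were found for 0.115% of tested genes.

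**Figure D3:**
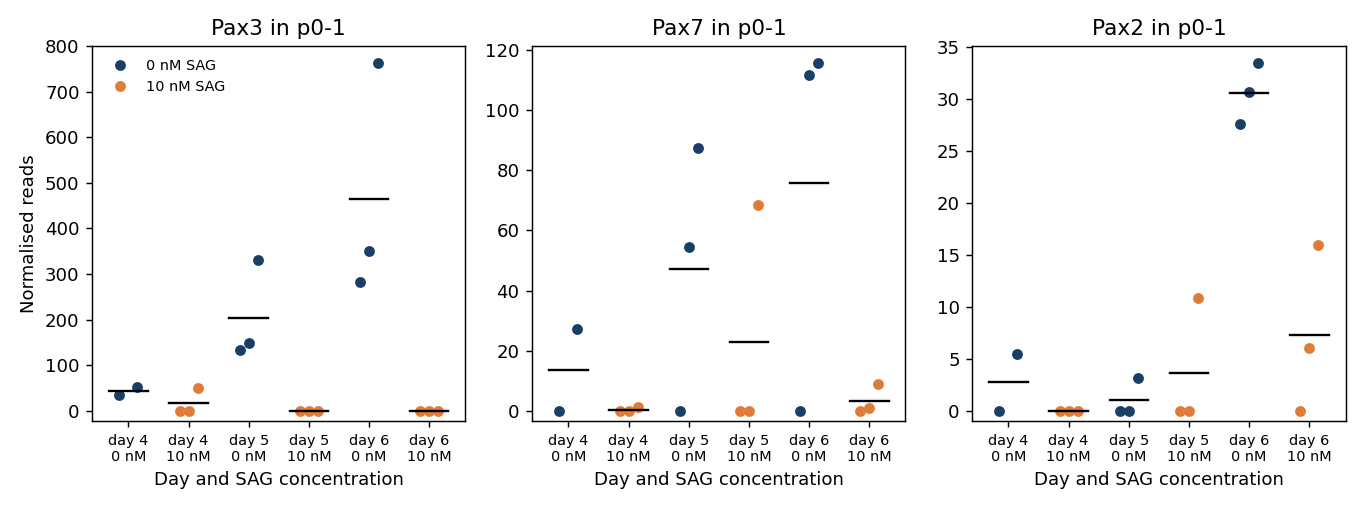
Pax3, Pax7 and Pax2 in normalised reads in the 17 p0-1 libraries, by day and SAG concentration in nM; points are libraries, ordered by value for display, and bars are group means. Pax3 lies at 35.6 to 762 in all 8 libraries at 0 nM and at 0 in 8 of 9 at 10 nM, whereas Pax7 and Pax2 have libraries at 0 in both.

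Between cell types on days 5 and 6, Pax3 was called lower than in p0-1 in p3 (-4.07, SE 0.55, limma adjusted p = 6.68e-07), in pMN (-3.61, SE 0.55, adjusted p = 1.19e-05) and in p2 (-4.07, SE 0.53, adjusted p = 1.04e-06). With no filter the limma adjusted p-values were 1.30e-07, 2.51e-06 and 2.11e-07. Each of these calls came from p0-1 at 0 nM. Without those libraries, a comparison chosen after seeing the data, the differences were 0.0 for p3, 0.46 for pMN and 0.0 for p2, none called, among 0.788%, 0.451% and 0.0931% of genes called. The difference between p0-1 and the ventral types was therefore not seen once SAG was 10 nM. Neither count model called any of these. On day 4, Pax3 was called in p3 against p0-1 (-3.68, SE 0.96, limma adjusted p = 0.00676) and not in pMN (adjusted p = 0.0499) or p2 (adjusted p = 0.66), each with the same difference of -3.68. The p3 call was lost on leaving out any one of 7 of the 9 libraries, and without the single p3 library at 100 nM the adjusted p was 0.104.

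**Figure D4:**
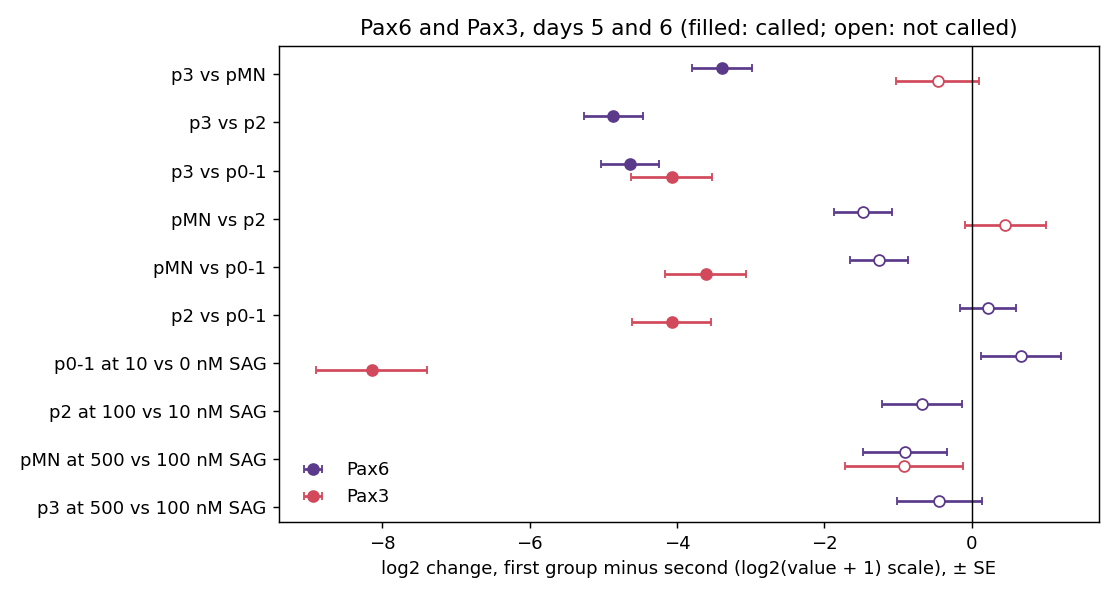
Log2 change of Pax6 and Pax3 in 10 comparisons on days 5 and 6, first group minus second on the log2(value + 1) scale; points are limma estimates, bars ± SE, filled where called and open where not, and comparisons with both groups at 0 are left out. Pax6 in p3 lies at -4.86 to -3.39, and Pax3 for 10 against 0 nM in p0-1 at -8.14.

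Other signs of Shh response and of dorsal cells were read beside Pax3 in these p0-1 libraries. Gli1, Ptch1 and Hhip, all transcribed in response to Shh, were not called between 10 and 0 nM. Gli1, a transcriptional effector of the pathway, was at 160 ± 102 at 10 nM and 40.7 ± 32.3 at 0 nM (2.19, SE 0.64, limma adjusted p = 0.421). Ptch1, the Shh receptor, was at 1300 ± 591 and 692 ± 342 (0.95, SE 0.27, adjusted p = 0.405; SD, n = 6 each). Hhip, which binds and sequesters Shh, was at 98.3 ± 121 and 91.5 ± 102 (1.56, SE 1.28, limma adjusted p = 1.0).

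Among ventral factors Nkx6-1, whose protein was used to exclude p2 from the p0-1 gate, was at 0 in all 6 libraries at 0 nM and above 3 reads in 3 of 6 at 10 nM, where its mean was 19.3 ± 27.8 (2.83, SE 0.68, adjusted p = 0.157). Of 19 dorsal and intermediate progenitor factors, 10 passed the filter and none was called, with a median of -0.89. Irx3 (0.04, SE 0.46) and Dbx1 (-0.31, SE 0.90), both expressed in the p0-1 region itself, were on either side of 0.

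Leaving Irx3, Irx5, Dbx1 and Dbx2 out of that list, a choice made after seeing the data, 15 dorsal factors remained. Their summed level ranged from 25.6 to 617 at 0 nM and from 0.0 to 448 at 10 nM (n = 6 each). At 0 nM 10 of the 15 had more than 3 reads in some library, and at 10 nM 6 did. Olig3, of the most dorsal progenitors, was above 3 reads in 3 of 6 libraries at 0 nM and at 0 at 10 nM. Wnt1, of the roof plate, was above 3 reads in 2 of 6 at 0 nM and at 0 at 10 nM. Msx1 and Gsx2 also had reads at 0 nM and were at 0 at 10 nM. Atoh1, Ptf1a, Gsx1 and Msx3 were at 0 at both.

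Neural crest also uses Pax3. Its 7 markers summed to 41.1 to 504 at 0 nM and to 77.3 to 733 at 10 nM. Sox10 was at 0 in all 12 libraries, and Foxd3 and Snai2 were at 0 at 0 nM. The 8 paraxial mesoderm markers summed to 0.0 to 244 and to 0.0 to 229, with Msgn1, Meox2, Foxc2 and Myf5 at 0. Whether a different share of dorsal cells within the gate takes part in the Pax3 difference was not tested, and in sorted bulk RNA fewer cells of a type and less RNA per cell cannot be told apart.

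Pax7, the paralogue of Pax3, was found mostly in the same libraries and at lower levels. At 0 nM in p0-1 it was at 0 and 27.4 on day 4, at 54.5, 0 and 87.5 on day 5, and at 112, 0 and 116 on day 6. At 10 nM it was at 0, 1.23 and 0 on day 4, at 68.6, 0 and 0 on day 5, and at 9.10, 0 and 1.14 on day 6. Unlike Pax3, Pax7 thus had a library at 0 on each day at 0 nM and overlapped between concentrations. On each day that library was replicate 2, and whether the replicate number takes part was not tested. On days 5 and 6 it was at 61.6 ± 52.4 at 0 nM and 13.1 ± 27.4 at 10 nM (SD, n = 6 each; exact permutation p = 0.22).

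Of the 8 p0-1 libraries at 0 nM, 5 had more than 3 reads of Pax7, and all 5 had Pax3. Of the 9 at 10 nM, 2 had more than 3 reads of Pax7, and neither had Pax3. Outside p0-1 only a day 6 p3 library at 100 nM, at 69.0, had more than 3 reads. All 15 p2 libraries were at 0.

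Pax7 did not pass the filter on low values. In a fit with no filter, over 20136 genes, its difference from p0-1 on days 5 and 6 was -2.53 in p3 (SE 0.73, limma adjusted p = 0.0485), -2.89 in pMN (SE 0.73, adjusted p = 0.0255) and -3.04 in p2 (SE 0.71, adjusted p = 0.0305), none called. Against the floor of 3 reads in the p2 libraries, the mean of 37.4 in the 12 p0-1 libraries was at least 12-fold higher. The median in p0-1 was 5.12, and 6 of the 12 libraries held more than 3 reads.

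Pax2, known for interneurons and the kidney, was found in more libraries than Pax7 but at lower levels in p0-1, and its clearest group was p0-1 at 0 nM on day 6. It was at 30.7, 27.6 and 33.5 in those 3 libraries, at 6.07, 0 and 15.9 in p0-1 at 10 nM on day 6, and at 0, 0 and 3.16 in p0-1 at 0 nM on day 5. The 3 libraries of day 6 at 0 nM were above all other p0-1 libraries, the highest of which was 15.9. Higher single values came from elsewhere, 70.1 in a p2 library at 10 nM and 36.1 in a p3 library at 100 nM, both on day 5, with the other libraries of those groups at 0.

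Over days 5 and 6, Pax2 was at 15.8 ± 16.3 in p0-1 at 0 nM and 5.49 ± 6.77 at 10 nM (SD, n = 6 each; exact permutation p = 0.35). It was at 0 in all 11 pMN libraries. In the fit with no filter the difference from p0-1 was -2.29 in pMN (SE 0.57, limma adjusted p = 0.0248), -1.73 in p3 (SE 0.57, adjusted p = 0.111) and -1.78 in p2 (SE 0.56, adjusted p = 0.253), none called.

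Interneuron genes that often accompany Pax2 were read in the same libraries. Of 11 listed, 5 passed the filter and none was called between 10 and 0 nM in p0-1. Their sum ranged from 91.3 to 368 at 0 nM and from 41.6 to 756 at 10 nM (n = 6 each), with Evx1, Evx2, Gad1 and Slc32a1, the transporter that loads inhibitory vesicles, at 0 in all 12.

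Pax8, a close relative of Pax2, was at 278 normalised reads (347 reads) in a day 4 pMN library at 100 nM and at 0 in the other 64. That library had the 60th highest number of genes with a read, 11416. Of all genes, 1403 had reads in exactly 1 library, 9 of them in this one, and 4 reached a value at or above that of Pax8. The 11 interneuron genes were at 0 in it. The 7 intermediate mesoderm and kidney markers summed to 2006 there, against a median of 1693 over the 65 libraries. The value is that of 1 library, with the other library of its group at 0, and it carries no pattern with SAG or cell type.

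Among the other Pax family genes Pax5 and Pax9 passed the filter and neither was called between 10 and 0 nM SAG in p0-1. Pax1 and Pax4 each had reads in 1 library. In p3 against p0-1 on days 5 and 6, 2 of the 4 Pax genes tested were called lower, Pax6 and Pax3, and none higher, against 1.43% of all genes called. Of these, Pax3 was not called by either count model or without p0-1 at 0 nM. Pax3 also passed the filter through those libraries, and PAX6 protein was used to sort p0-1. The count is therefore no measure of the Pax family as a whole.

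The genes of the other lists moved between the types as follows on days 5 and 6. Of the 10 dorsal and intermediate factors tested, 3 were called lower in p3 than in p0-1 (Dbx1, Irx3 and Irx5), 2 in pMN (Dbx1 and Irx3) and 1 in p2 (Dbx1), and none higher, where 1.43%, 0.96% and 0.322% of all genes were called. Their median differences were -1.58, -1.49 and -0.47, against -0.07, 0.01 and -0.05 over all genes. Of the 6 ventral factors, 6 were called higher than in p0-1 in p3, 4 in pMN and 2 in p2, against the same shares. None was called between 10 and 0 nM in p0-1. The list holds Nkx2-2 and Nkx6-1, whose proteins were used in the sort, so these counts were not independent of the gate. Gli1 was at 982 ± 487 in p3, 1406 ± 343 in pMN, 678 ± 280 in p2 and 100 ± 95.4 in p0-1 (SD, n = 11, 11, 12 and 12). Hhip was at 353 ± 260.2 in p3, 503 ± 141 in pMN, 1193 ± 811 in p2 and 94.9 ± 107 in p0-1 (SD, same n). The mean of Gli1 was thus highest in pMN, that of Hhip in p2, and that of Pax6 lowest in p3, where all 11 libraries held Gli1.

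The genes whose group means were most like those of each Pax gene were named as a description, by Pearson's r over the 25 groups on the log2 scale, among 12896 tested genes that reached 100 in some group. The groups share normalisation and cell types. For Pax6 they were Fabp5 (0.79), a fatty acid binding protein, Vcan (0.79), a matrix proteoglycan, and Dek (0.78), a chromatin protein. Without the NMPs these were 0.72, 0.73 and 0.59, so part of the likeness came from the low NMP value.

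For Pax3 they were Prdm13 (0.84), Slc1a1 (0.80) and Prdm16 (0.74). For Pax7 they were Prdm13 (0.93), Prdm16 (0.86) and Pax3 (0.85). Prdm13, a factor of dorsal spinal progenitors, was at 236 ± 152 in p0-1 at 0 nM and 55.9 ± 69.3 at 10 nM on days 5 and 6 (SD, n = 6 each), and at 0 in all pMN and p2 libraries. Slc1a1, a glutamate transporter, was at 112 ± 37.5 and 26.8 ± 43.8 there (SD, n = 6 each).

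For Pax2 the first was Robo3 (0.68), a guidance receptor of commissural axons. Among the other pairs of Pax genes, Pax6 had an r of 0.18 with Pax3, 0.23 with Pax7 and 0.04 with Pax2, while Pax3 had 0.57 with Pax2. For Pax8 no likeness is given, since its pattern is 1 library.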

How the data were processed

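RNA from fixed and sorted cells was made into SMART-Seq HT libraries with ERCC spike-ins. Per the labels and the paper's methods, the authors aligned reads to mm10 and counted them over genes with featureCounts in an nf-core pipeline, ignoring duplicates, removed libraries that failed quality control, and deposited read counts divided by a size factor (unit here: signal, normalised). Of the deposited values above 0, 100.0% were whole multiples of 1 read within 1e-06, and reads were recovered by division. Total reads were 7615114 to 13484815 per library, and intervals and floors of 3 reads cover counting error only.

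limma 3.58.1 (trend) was fitted to log2(value + 1) with one mean per group over all 65 libraries, for 13964 genes with a mean of at least 10. This understates changes of low genes. Benjamini-Hochberg adjustment was over all genes, and calls needed an adjusted p below 0.01 and more than 2-fold. Adjusted p-values in the report are from this fit unless another tool is named. edgeR 4.0.16 (quasi-likelihood) and DESeq2 1.42.0 on recovered reads, another pseudocount, filters, TMM, array weights, a replicate block and leaving out each library were alternatives. The fit was tested on simulated data. The named genes were the Pax genes and lists of progenitor, interneuron, crest and mesoderm genes, Gli1, Ptch1 and Hhip as Shh targets, and the 3 genes most like each Pax gene. The members and lists were chosen with earlier results of these data known. The result of the full list of Shh targets is not reported here.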

Additional observations from a re-analysis of the deposited data

Results flagged for a closer look

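In 29 sets of libraries of one cell type and day in which a Pax gene was above 0 in some library, 11 had a library far from the others by a gap test on the log2(value + 1) scale that chance alone meets in about 1 in 20 sets. Each of the 11 was a high library, most in a set otherwise at or near 0, where any library with reads meets the test.

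Pax3 stood apart at 44.4 normalised reads in day 5 pMN at 100 nM, replicate 1. Pax7 stood apart at 27.4 in day 4 p0-1 at 0 nM, replicate 3, at 69.0 in day 6 p3 at 100 nM, replicate 3, and at 2.51 in day 5 pMN at 500 nM, replicate 1.

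Pax2 stood apart at 5.48 in day 4 p0-1 at 0 nM, replicate 3, and at 70.1 in day 5 p2 at 10 nM, replicate 1. In p3 it did so at 2.91 on day 4 (500 nM, replicate 3), at 36.1 on day 5 (100 nM, replicate 2) and at 1.02 on day 6 (500 nM, replicate 3), and in pMN at 4.35 on day 4 (500 nM, replicate 2). Pax8 stood apart at 278 in day 4 pMN at 100 nM, replicate 2. No Pax6 library stood apart in this way.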

How the results depend on the processing

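Of 39 Pax6 and Pax3 differences, 18 kept their direction and their side of the threshold under every alternative run, and of 945 alternative values 885 did. Pax6 in p3 against pMN, p2 and p0-1 on days 5 and 6, and day 4 NPs against NMPs, stayed called under all of them. Pax7, Pax2 and Pax8 stood below the filter, and whether depth takes part in this was not tested. Pax3 could not be fitted with a mean of at least 100. The cause of the changes listed was not tested except where the fit itself names fewer libraries.

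Pax3 lost its call against p0-1 on days 5 and 6 with edgeR at -5.68 in p3, -3.93 in pMN and -5.68 in p2, with DESeq2 at -5.57, -3.83 and -5.32, and without p0-1 at 0 nM at 0.0, 0.46 (reversed) and 0.0. At matched SAG it was 0.0 in p2. For 10 against 0 nM in p0-1 it was -11.36 with edgeR and -10.71 with DESeq2, not called, and -8.29 to -7.93 with a library left out, called each time. On day 4 in p3 it lost its call at a pseudocount of 10 (-1.64), with the compared libraries only (-3.68), edgeR (-7.88), DESeq2 (-7.44) and without p0-1 at 0 nM (-1.90), and lay between -4.16 and -2.73 with a library left out. Pax6 in p3 on day 4 lost its call with the compared libraries only (-3.49). Pax6 was called in pMN against p2 with the compared libraries only (-1.48) and DESeq2 (-1.42), and in pMN against p0-1 likewise (-1.25 and -1.23). The exact permutation test, unadjusted among 11 such tests, put Pax6 below 0.05 at 0.67 in p0-1, -0.67 in p2 and -0.90 in pMN. That test took the days as independent.

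Directions that were not called turned as follows. Pax6 in p2 against p0-1 was -0.12 without p0-1 at 0 nM, in p3 at 500 against 100 nM 0.27 with edgeR and 0.23 with DESeq2, and in p0-1 with array weights -0.0078 from day 4 to 5 and -0.0122 from day 5 to 6. Pax3 in p0-1 from day 4 to 5 was -0.32 with array weights, -2.50 with edgeR and -2.11 with DESeq2. With a library left out the ranges crossed 0 for Pax6 in p2 against p0-1 on day 4 (-0.34 to 0.18), p3 at 500 against 100 nM (-1.39 to 0.51), p3, pMN and p0-1 from day 4 to 5 (-0.92 to 0.19, -0.0444 to 0.31 and -0.17 to 0.35), p0-1 from day 5 to 6 (-0.0667 to 0.22) and the difference of p3 and p0-1 from day 4 to 5 (-1.01 to 0.10), and for Pax3 in day 4 NPs against NMPs (-1.07 to 0.92) and p0-1 from day 4 to 5 (-0.38 to 1.04).

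Replicate numbers were not treated as pairing the libraries, since the labels do not say that a number marks a shared culture and the median r of same-numbered deviations was 0.016 over 634 pairs, against -0.008 over 1262 pairs of different numbers, though 53 of 63 libraries correlated best with their own number. With a replicate block Pax6 in p3 against pMN was -3.39 and Pax3 at 10 against 0 nM in p0-1 -8.14, and no call of either gene changed. Counts of genes called over the whole table moved more, with DESeq2 giving the highest in each comparison that follows. In p0-1 at 10 against 0 nM the count was 2 (0 to 425 over the alternatives other than leaving out 1 library). On days 5 and 6 it was 97 in p3 against pMN (47 to 784), 178 in p3 against p2 (77 to 985), 199 in p3 against p0-1 (109 to 888), 15 in pMN against p2 (2 to 587), 134 in pMN against p0-1 (63 to 748) and 45 in p2 against p0-1 (3 to 633). On day 4 it was 840 in p3 (543 to 3136), 14 in pMN (0 to 624) and 4 in p2 (0 to 211). For SAG it was 5 in p2 (0 to 645), 0 in pMN (0 to 442) and 4 in p3 (0 to 665).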
